A study of Mus musculus with 90 samples.

Results

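Prolactin, growth hormone, the subunits of the gonadotropins and thyrotropin, the factor Pou1f1 and the prolactin receptor were followed through 15 tissues of female mice, C57BL/6 by the labels and C57BL/6J by the study's methods. The 8 genes were Prl (Entrez 19109), Gh (14599), Cga (12640), Lhb (16866), Fshb (14308), Tshb (22094), Pou1f1 (18736) and Prlr (19116), of 20414 genes in the deposited table. They were selected on earlier results of these data, in which the hormone genes stood far above the other libraries in 1 hypothalamus library and showed traces in stomach, kidney and muscle, so their levels across libraries are given as a description without a test. The mice were 10 weeks old by the labels, while the study's methods give a younger age, and the labels name no transgene or drug. Mice were assigned to estrus or diestrus from stained vaginal secretions, with 3 libraries per tissue and phase and 90 in all. The tissues were hypothalamus and cerebrum, ovary and uterus, liver, duodenum and stomach, kidney, spleen, heart, aorta and vein, skeletal muscle, and brown (BAT) and white (WAT) adipose tissue. The pituitary itself was not among them.

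The anterior pituitary hangs below the hypothalamus and releases peptide hormones into the blood under the control of hypothalamic releasing hormones and dopamine. Lactotrophs make prolactin, somatotrophs make growth hormone, gonadotrophs make luteinizing and follicle-stimulating hormone, and thyrotrophs make thyrotropin. The last 3 hormones share the alpha subunit encoded by Cga and differ in the beta subunit from Lhb, Fshb or Tshb. Pou1f1, also called Pit-1, is the transcription factor that lactotrophs, somatotrophs and thyrotrophs need, and Prlr is the cytokine-type receptor through which prolactin acts on liver, kidney, ovary and other target tissues.

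All levels are FPKM, fragments scaled by transcript length and by the mapped fragments of the library, so genes can be compared per length. Depth was estimated roughly from the smallest steps between values, at about 8.29M to 16.9M reads in 89 libraries and 0.0724M in BAT estrus replicate 3. The study's methods give more reads per sample than these estimates. In BAT estrus replicate 3 a value of 0 says little. In bulk tissue, fewer cells of a type and less RNA per cell cannot be told apart. The phases were separate mice and each mouse gave several tissues, so libraries of different tissues are not independent, and a p-value covers the spread between 3 mice of a phase.

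The promoters of the hormone genes other than Gh, which the promoter set used did not hold, are shown first. The members were followed as products of a single gland while their patterns across tissues differed. The sequences are the 250 bases before the RefSeq start site (GRCm38.p6), 5′ to 3′ on the strand of the gene, at chr13:27057320-27057569 (+) for Prl, chr4:34893529-34893778 (+) for Cga, chr7:45420696-45420945 (+) for Lhb, chr2:107059652-107059901 (-) for Fshb and chr3:102782715-102782964 (-) for Tshb. Capitals mark matches, on either strand, to TATAAA (the TATA box), ATGNATA (the core of a Pou1f1 site) and CAAGGTCA (a site of the gonadotroph factor Nr5a1), and adjoining or overlapping matches run together.
Prl: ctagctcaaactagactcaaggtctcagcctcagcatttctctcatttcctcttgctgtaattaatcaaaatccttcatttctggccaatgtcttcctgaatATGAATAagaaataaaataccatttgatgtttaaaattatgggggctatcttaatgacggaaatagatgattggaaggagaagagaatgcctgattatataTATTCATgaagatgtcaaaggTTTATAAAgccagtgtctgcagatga
Cga: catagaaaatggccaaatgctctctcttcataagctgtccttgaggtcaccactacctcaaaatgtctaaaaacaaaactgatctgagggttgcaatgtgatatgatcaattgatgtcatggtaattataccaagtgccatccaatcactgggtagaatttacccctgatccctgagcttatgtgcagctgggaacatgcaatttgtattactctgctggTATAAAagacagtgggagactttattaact
Lhb: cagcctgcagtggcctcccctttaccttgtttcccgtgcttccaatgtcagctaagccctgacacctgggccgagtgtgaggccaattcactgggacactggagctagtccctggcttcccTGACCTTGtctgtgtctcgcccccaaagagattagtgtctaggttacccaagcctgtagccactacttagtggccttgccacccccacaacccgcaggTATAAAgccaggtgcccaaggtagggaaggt
Fshb: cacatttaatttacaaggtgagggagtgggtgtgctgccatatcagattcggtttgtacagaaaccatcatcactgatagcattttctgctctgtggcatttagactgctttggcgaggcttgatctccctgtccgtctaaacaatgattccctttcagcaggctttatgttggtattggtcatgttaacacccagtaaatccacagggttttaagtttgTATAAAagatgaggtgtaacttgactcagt
Tshb: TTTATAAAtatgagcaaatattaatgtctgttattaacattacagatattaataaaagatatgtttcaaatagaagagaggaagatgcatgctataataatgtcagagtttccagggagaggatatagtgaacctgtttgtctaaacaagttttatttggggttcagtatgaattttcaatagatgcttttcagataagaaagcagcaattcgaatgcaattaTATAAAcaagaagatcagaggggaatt

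Of 32851 promoters of this length, 12.4% held TATAAA, 7.92% held ATGNATA and 1.33% held CAAGGTCA. All 5 hormone promoters shown held TATAAA, with the match nearest the start beginning between 24 and 31 bases before it. Prl held 2 matches to ATGNATA, Pou1f1 itself held 1 at the first of its 2 listed start sites, and Lhb alone of the members scanned held CAAGGTCA. Gh was not scanned, so nothing is said of its motifs. None of the 3 start sites listed for Prlr held any of the 3 motifs in this window. These are descriptions of letters, not of bound sites.

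Prl and Gh, the products of lactotrophs and somatotrophs, were abundant in 1 library. In hypothalamus Prl was 208, 21607 and 262 FPKM in estrus replicates 1 to 3 and 9.29, 25.1 and 179 FPKM in diestrus replicates 1 to 3. Gh was 84.8, 9200 and 89.9 FPKM in estrus and 3.65, 10.2 and 95.7 FPKM in diestrus. Estrus replicate 2 was 82.6 times the next highest hypothalamus library for Prl and 96.1 times for Gh. For Prl the lowest estrus library was 208 FPKM and the highest diestrus library 179 FPKM, while for Gh the phases overlapped. These values took part in the choice of the genes, so no phase difference is read from them. In estrus replicate 2 Prl and Gh ranked first and second of all genes, ahead of a gene at 1811 FPKM, and together took 7.58% of its summed FPKM. No other library gave them more than 0.107%.

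**Figure D1:**
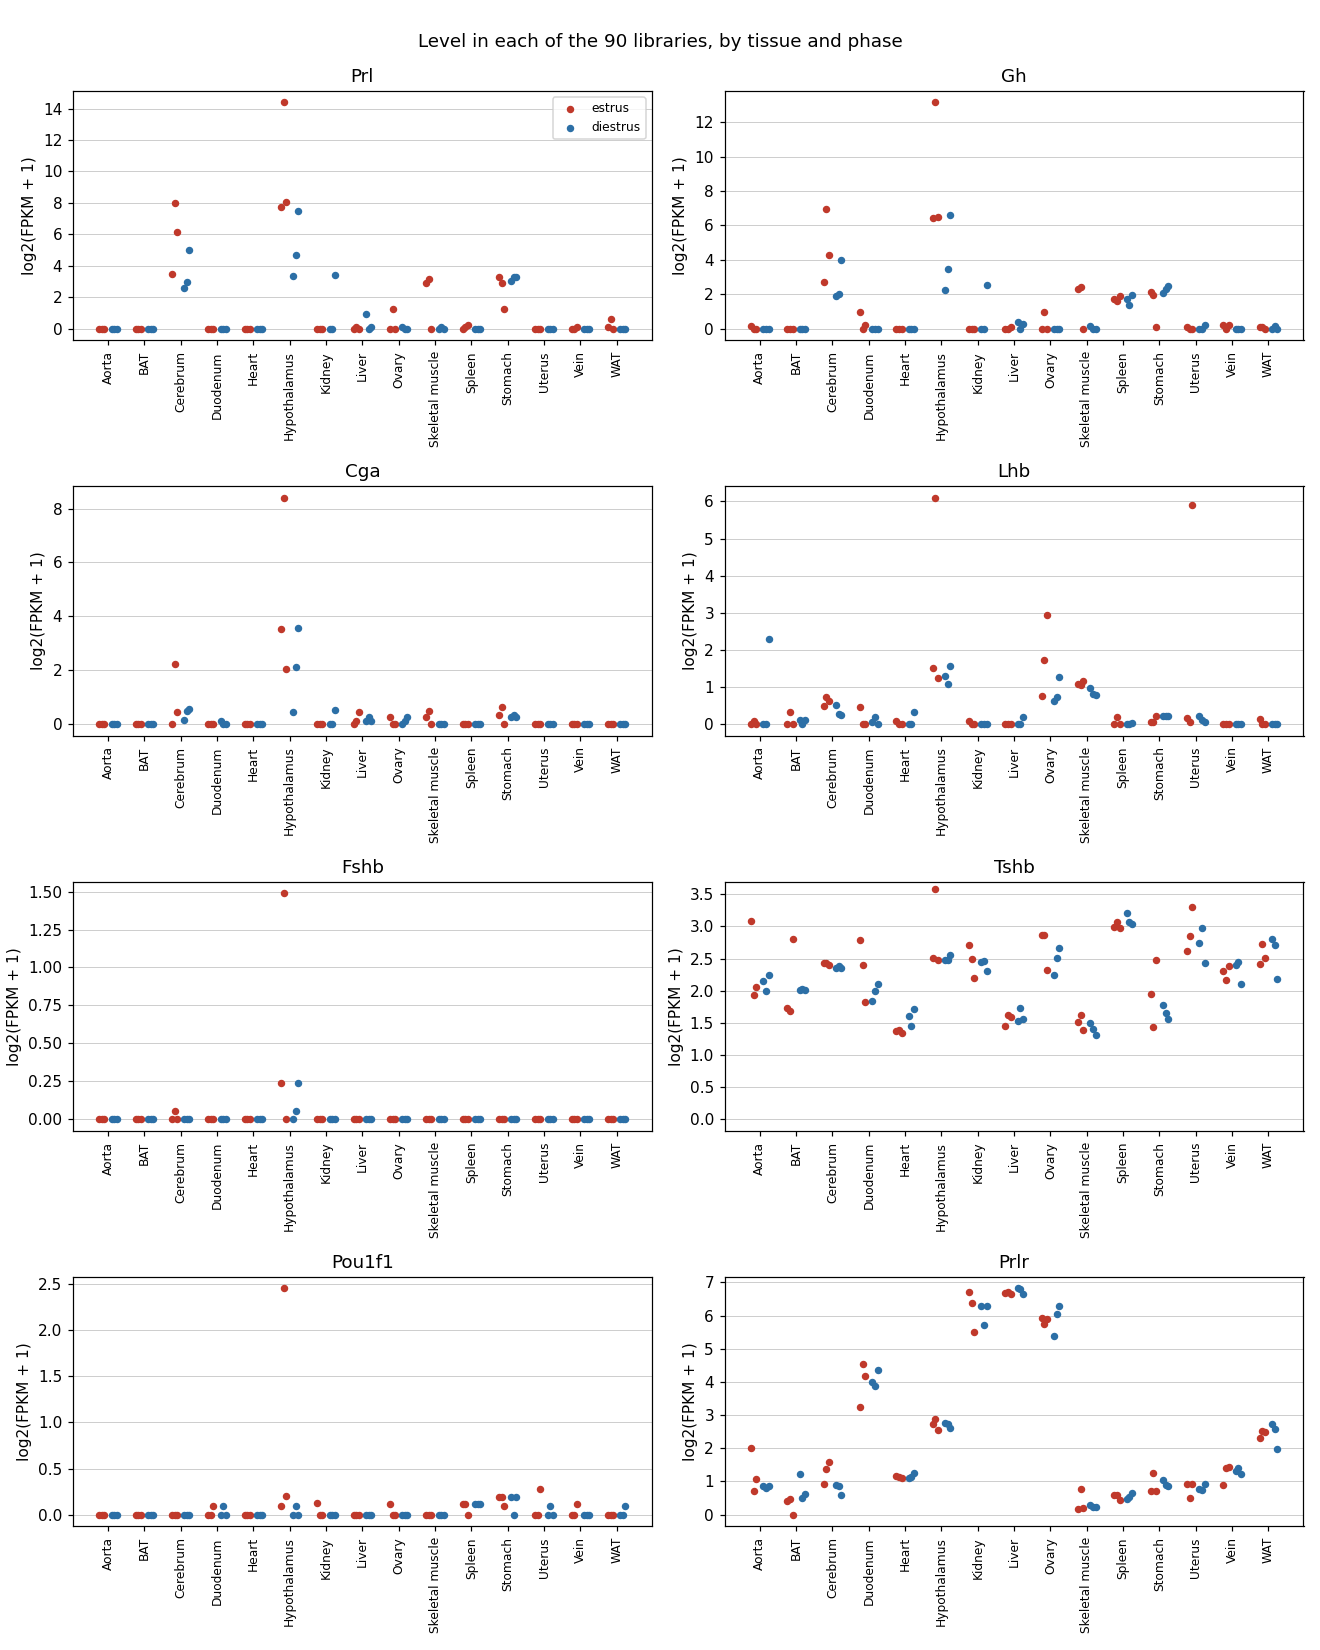
Level of each of the 8 genes as log2(FPKM + 1), on axes that differ between panels, in every library by tissue and phase (estrus red, diestrus blue). Prl and Gh share 1 hypothalamus library far above the rest, Lhb has another high point in uterus, Tshb is above 0 in all 90 libraries and Prlr is highest in liver, kidney and ovary.

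The gonadotropin and thyrotropin subunits and the lineage factor stood out in the same library. Cga was 10.6, 338 and 3.12 FPKM in the hypothalamus libraries of estrus and 0.37, 3.38 and 10.7 FPKM in those of diestrus. Lhb was 67.8 FPKM in estrus replicate 2 and 1.12 to 1.95 FPKM in the other 5. These 2 genes were thus 31.6 and 34.7 times the next highest hypothalamus library. Fshb reached 1.81 FPKM there, the only value of this gene at 1 FPKM or more, and was between 0 and 0.18 FPKM in the other 5. Tshb was 10.99 FPKM there and 4.56 to 4.91 FPKM in the other 5. Pou1f1 was 4.49 FPKM there and at most 0.15 FPKM in the other 5.

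Measured against the highest of the other 5 hypothalamus libraries on the log2(FPKM + 1) scale, 35 genes were at least 1 log2 unit higher in estrus replicate 2, and 7 of the 8 members were among them. Prlr was the exception at 0.13. The same count in the other hypothalamus libraries was 6, 19, 0, 2 and 6 genes, with 0 members in each. The members were selected partly on estrus replicate 2, so these member counts reflect that choice and are given as a description. After Gh, Prl, Cga and Lhb the highest differences in estrus replicate 2 were those of Pomc (3.35), the corticotroph and melanotroph precursor, Ghrhr (2.99), the receptor by which somatotrophs sense growth hormone releasing hormone, and Epcam (2.32), an epithelial adhesion molecule. Pou1f1 (2.26), Cyp2f2 (1.92), Lhx3 (1.91), a pituitary lineage factor, Oacyl (1.88), Gnb3 (1.85), Cldn9 (1.74), Rab25 (1.68), Pitx1 (1.63), Isg20 (1.56), Myo15 (1.37), Hepacam2 (1.36), Rufy4 (1.29) and Rcn3 (1.25) completed the 20 genes.

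**Figure D2:**
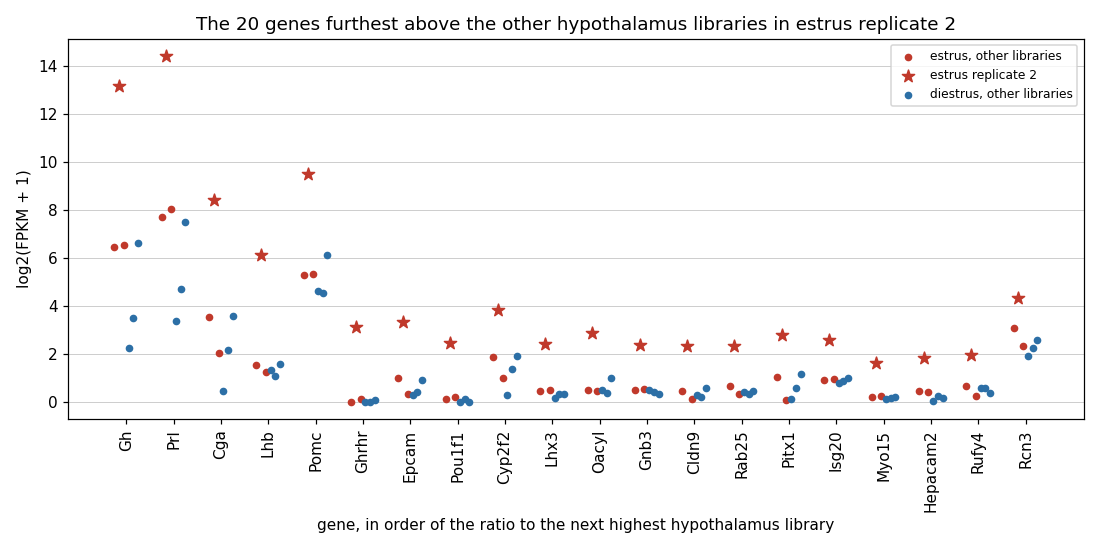
Level as log2(FPKM + 1) of the 20 genes with the highest ratio of hypothalamus estrus replicate 2 (star) to the highest of the other 5 hypothalamus libraries (points, estrus red and diestrus blue). Gh and Prl lead at 6.57 and 6.36 log2 units above the next library, followed by Cga at 4.86 and Lhb at 4.54.

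Lists of other pituitary genes were read in the same way. Of 19 pituitary lineage factors, 4 were at least 1 log2 unit above the other hypothalamus libraries in estrus replicate 2. They were Lhx3, Pitx1, Tbx19 and Pou1f1, the last of which is itself a member. The list's median was 0 beside -0.10 over all genes. Tbx19, a corticotroph factor, was 3.05 FPKM there and 0.46 to 0.98 FPKM in the other 5. Of 21 other pituitary cell products 4 were that high, Pomc at 711 FPKM against 22.1 to 68.7 FPKM, Ghrhr at 7.56 against 0 to 0.08 FPKM, Oacyl at 6.19 against 0.28 to 0.96 FPKM and Tgfbr3l at 17.5 against 4.43 to 7.67 FPKM. Many of the remaining genes on these lists are also made by hypothalamic neurons, such as Scg2, a granule protein, at 499 FPKM against 470 to 540 FPKM. Of the 15 releasing hormone and dopamine genes 0 were that high. Ghrh, the releasing hormone for growth hormone, was 13.7 FPKM there and 14.7 to 17.02 FPKM in the other 5.

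The dopamine genes, whose product restrains prolactin release, were highest in another library. Slc6a3, the dopamine transporter, was 42.2 FPKM and Th, which makes the dopamine precursor, was 79.7 FPKM in hypothalamus estrus replicate 3. In the other 5 libraries Slc6a3 was 0.68 to 7.46 FPKM and Th 21.8 to 29.8 FPKM. Prl in estrus replicate 3 was 262 FPKM, second among the 6. The gene furthest above the other hypothalamus libraries there was Ucn, 3.83 log2 units over the next on the log2(FPKM + 1) scale. Which neurons gave the dopamine gene values, and whether they bore on Prl, was not tested.

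In cerebrum Prl was 10.3, 256 and 68.6 FPKM in estrus and 5.01, 6.91 and 31.5 FPKM in diestrus. Gh was 5.64, 124 and 18.4 FPKM in estrus and 2.69, 3.09 and 14.7 FPKM in diestrus. The phases overlapped for both genes. Estrus replicate 2 was again the highest library and diestrus replicate 1 the lowest, as in hypothalamus. Cga in cerebrum was 3.72 FPKM in estrus replicate 2 and at most 0.47 FPKM in the other 5. By the study's methods the 15 tissues were dissected from 3 mice per phase, but whether a replicate number marks 1 mouse across tissues is not stated in the labels.

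Prl and Gh kept nearly 1 proportion over these levels. In the 20 libraries with both genes at 1 FPKM or more, the ratio of Prl to Gh had a median of 2.25, a lowest value of 1.65 and a highest of 3.72. It ranged from 1.83 to 3.72 in the 12 brain libraries and from 1.65 to 2.52 in the 8 others, which were 5 stomach libraries, skeletal muscle estrus replicates 1 and 2 and kidney diestrus replicate 3. In those 8 libraries Prl was 0.0301% to 0.044% and Gh 0.0315% to 0.0528% of the level in hypothalamus estrus replicate 2.

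**Figure D3:**
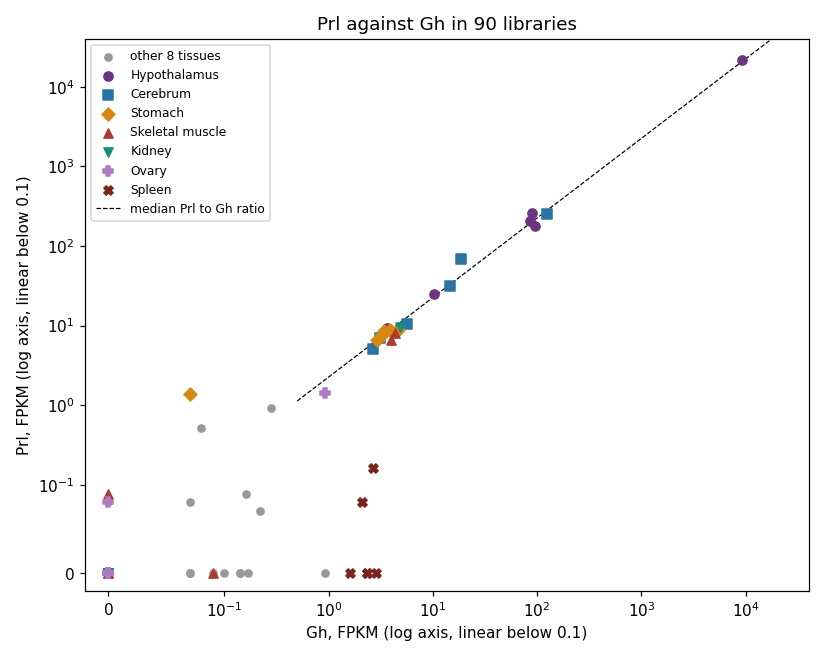
Prl against Gh in FPKM, 1 point per library, on log axes that are linear below 0.1, with a dashed line at the median ratio of 2.25. The 20 libraries with both genes at 1 FPKM or more lie along 1 line, stomach estrus replicate 3 lies above it with Prl at 1.37 and Gh at 0.07 FPKM, and the 6 spleen libraries lie below it with Gh between 1.61 and 2.85 FPKM.

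Outside the brain, Prl at 1 FPKM or more was found in every stomach library, in some of skeletal muscle and in single libraries of kidney and ovary. Prl in stomach was 8.63, 6.56 and 1.37 FPKM in estrus and 7.31, 8.81 and 8.82 FPKM in diestrus, and Gh was 3.43, 2.90 and 0.07 FPKM in estrus and 3.16, 3.89 and 4.60 FPKM in diestrus. Estrus replicate 3 was the low library for both, and its Prl was far above the proportion to Gh seen in the 20 libraries. In skeletal muscle Prl was 6.50 and 8.04 FPKM in estrus replicates 1 and 2, 0.09 FPKM in diestrus replicate 2 and 0 in the other 3. Gh was 3.93 and 4.38 FPKM in the same estrus libraries and at most 0.09 FPKM in the other 4. In kidney, diestrus replicate 3 held 9.51 FPKM of Prl and 4.86 FPKM of Gh, and the other 5 held 0 of both. Ovary estrus replicate 2 held 1.41 FPKM of Prl and 0.92 FPKM of Gh. Lower traces of Prl included 0.91 FPKM in liver diestrus replicate 1 and 0.51 FPKM in WAT estrus replicate 2. Gh was 0.92 FPKM in duodenum estrus replicate 1. Prl was listed at 0 in all 30 libraries of 5 tissues, aorta, BAT, duodenum, heart and uterus.

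Some of the libraries with traces also held genes of other organs. Pgc, the precursor of a stomach protease, was 15914 to 115889 FPKM in stomach. It was 65.2 FPKM in kidney diestrus replicate 3 and 38.8 and 36.9 FPKM in skeletal muscle estrus replicates 1 and 2, against at most 0.05 and 0.21 FPKM in the other libraries of kidney and muscle. In the 12 brain libraries Pgc was 31.4 to 103 FPKM. Snap25, a synaptic protein at 632 to 1567 FPKM in brain, was 3.05 FPKM in kidney diestrus replicate 3 and at most 0.16 FPKM in the other kidney libraries. In skeletal muscle Snap25 was 2.67 and 3.37 FPKM in the libraries with Prl, but 4.72 FPKM in diestrus replicate 2, where Prl was 0.09 FPKM. Of the 66 libraries outside brain, stomach and duodenum, 4 held Pgc at 20 FPKM or more and 4 held Prl at 1 FPKM or more, and 3 were the same. Heart estrus replicate 3, at 95.9 FPKM of Pgc, held no Prl, and ovary estrus replicate 2, with Prl, held no Pgc. Whether RNA or reads were shared between libraries, and whether this entered the hormone values, was not tested.

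Spleen departed from the common proportion in the other direction. Gh there was 2.33, 2.07 and 2.67 FPKM in estrus and 2.35, 1.61 and 2.85 FPKM in diestrus, similar in all 6 libraries and overlapping between phases, with Prl between 0 and 0.16 FPKM. The 6 genes of a B cell list made after these values were seen summed to 2167 to 2756 FPKM in spleen. Cd79b, a subunit of the B cell receptor, is the nearest protein-coding gene to Gh on chromosome 11, on the same strand at a distance of 9476 bases. It was 397 to 489 FPKM in spleen and at most 94.1 FPKM elsewhere. Over all 90 libraries the Pearson r of Gh and Cd79b was -0.07. The part of the neighbour in the spleen values was not tested.

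Lhb, the beta subunit of luteinizing hormone, had a pattern of its own outside the hypothalamus. In uterus it was 58.5 FPKM in estrus replicate 3 and 0.04 to 0.16 FPKM in the other 5. In ovary it was 0.68, 2.29 and 6.67 FPKM in estrus and 0.52, 0.66 and 1.42 FPKM in diestrus, and in aorta it was 3.88 FPKM in diestrus replicate 3 and at most 0.05 FPKM in the others. In the uterus and aorta a single library was high, and in ovary the phases overlapped. Cga was listed at 0 in all uterus libraries, and 5 libraries held Lhb at 1 FPKM or more with Cga at 0. Skeletal muscle held low Lhb, 1.12, 1.07 and 1.24 FPKM in estrus and 0.97, 0.74 and 0.70 FPKM in diestrus. These did not overlap but lay under the filter of the phase test, and the share of all genes so separated was not counted.

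The same libraries were the highest for genes of motile cilia, a list made after the Lhb values were seen. The summed level of the 10 ciliated cell genes was 590 FPKM in uterus estrus replicate 3 and 7.71 to 12.1 FPKM in the other 5, with all 10 genes at 1 FPKM or more in that library. It was 193 FPKM in ovary estrus replicate 3 and 7.66 to 22.3 FPKM in the other 5, and 32.6 FPKM in aorta diestrus replicate 3 and 2.64 to 5.52 FPKM in the others. Foxj1, the main transcription factor of motile cilia, was 155 FPKM in uterus estrus replicate 3 and 60.4 FPKM in ovary estrus replicate 3. The genes most like Lhb over the 90 libraries were Dnali1 (r = 0.84), an axonemal dynein subunit, Fam216b (0.84), Ccdc121 (0.84), Dnaaf6b (0.84) and Cibar2 (0.83), an order of which 0 of the first 10 genes remained under Spearman's rho. These points share libraries, and the part of ciliated cells in the Lhb values was not tested. Lhb overlaps Ruvbl2 on the opposite strand by 138 bases, and with a kit whose strand handling is not given in the sources used here the reads of the overlap cannot be told apart. Ruvbl2 was 28.9 FPKM in uterus estrus replicate 3 and 16.8 to 50.2 FPKM in the other 5.

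**Figure D4:**
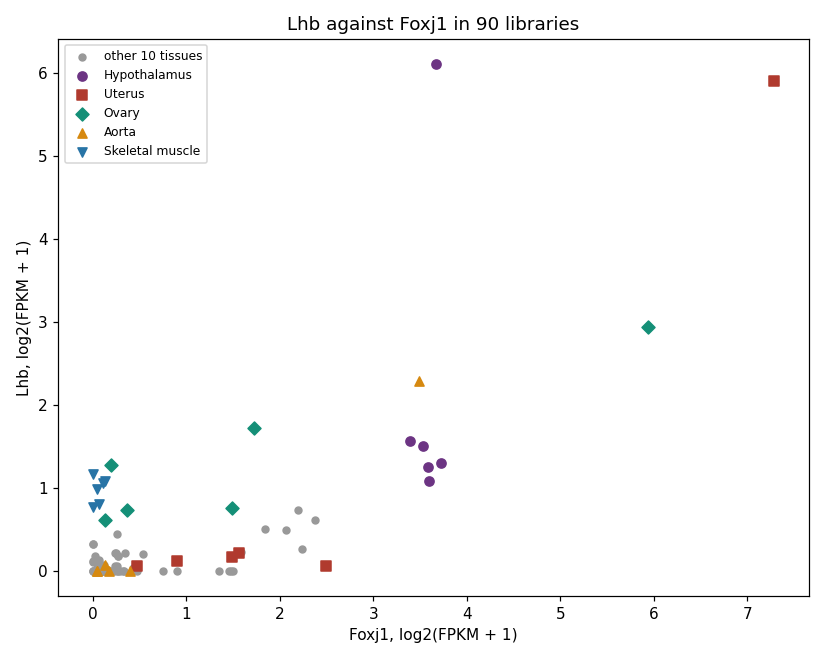
Lhb against Foxj1, both as log2(FPKM + 1), 1 point per library. Uterus estrus replicate 3 and ovary estrus replicate 3 are high for both genes, while the hypothalamus library at the top has Lhb at 67.8 FPKM with Foxj1 at 11.8 FPKM, near the other hypothalamus libraries.

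Tshb, the beta subunit of thyrotropin, was above 0 in every library, from 1.49 to 10.99 FPKM. The 6.02 FPKM of BAT estrus replicate 3 says little, as that library had about 0.0724M reads. Spleen was highest with a mean of 7.34 ± 0.482 FPKM (SD, n = 6), ahead of uterus at 6.19 ± 1.56 FPKM and hypothalamus at 5.73 ± 2.58 FPKM, with ranges that overlapped. Liver at 2.00 ± 0.2003 FPKM, heart at 1.80 ± 0.298 FPKM and skeletal muscle at 1.76 ± 0.208 FPKM were lowest, and the ranges of these 3 overlapped. The subunit it pairs with, Cga, was at 0 in 62 of the 90 libraries. The genes most like Tshb were Prpf39 (r = 0.87) and Srek1 (0.87), both splicing proteins, and Fam133b (0.86), chosen after the values were seen. The annotation places all 7254 bases of Tshb within Tspan2 on the opposite strand, with 0 bases shared between their exons. Tspan2 ranged from 0 to 67.6 FPKM with an r of 0.40 to Tshb.

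Fshb and Pou1f1 were the least abundant members. Fshb was above 0 in 5 libraries, 4 of hypothalamus and cerebrum estrus replicate 2 at 0.04 FPKM. Pou1f1 was above 0 in 22 libraries but at most 0.21 FPKM outside hypothalamus estrus replicate 2. Of 25 prolactin family paralogs 10 were listed in the table, and 2 of them reached 1 FPKM in any library, with Prl2c3 the highest at 2.65 FPKM in heart estrus replicate 3.

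By Pearson r of log2(FPKM + 1) over the 90 libraries, Gh was the gene most like Prl (r = 0.97), followed by Cga (0.87), Slc6a11 (0.86), a neuronal and glial GABA transporter, Pomc (0.86), Slc17a6 (0.84), Gabrg1 (0.84), Glra2 (0.84), Tenm1 (0.84) and DXBay18 (0.84). Those most like Gh were Prl, Cga (0.89), Pomc (0.87), DXBay18 (0.83), Oacyl (0.82), Slc6a11 (0.81), Hcrtr2 (0.81), Slc17a6 (0.81), Gabrg1 (0.81) and Glra2 (0.81). Pituitary products therefore stood beside general brain genes in both orders. The points share tissues and libraries, so no p is given.

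The prolactin receptor had a distribution unlike that of its ligand. Its mean was 105 ± 5.67 FPKM in liver, 72.7 ± 21.9 FPKM in kidney and 59.0 ± 12.5 FPKM in ovary (SD, n = 6). Duodenum followed at 15.9 ± 4.81 FPKM, hypothalamus at 5.58 ± 0.544 FPKM and WAT at 4.44 ± 0.935 FPKM. The ranges of liver and kidney overlapped, as did those of kidney and ovary, and of hypothalamus and WAT. Ovary lay above duodenum, duodenum above hypothalamus and WAT above vein without overlap. From vein down, each tissue overlapped with the next.

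Vein at 1.44 ± 0.323 FPKM, heart at 1.22 ± 0.0981 FPKM, aorta at 1.195 ± 0.928 FPKM and cerebrum at 1.11 ± 0.561 FPKM formed the middle. Stomach at 0.895 ± 0.277 FPKM, uterus at 0.750 ± 0.190 FPKM, BAT at 0.495 ± 0.439 FPKM, spleen at 0.462 ± 0.0840 FPKM and skeletal muscle at 0.257 ± 0.229 FPKM were lowest. In aorta 1 library, estrus replicate 1, was 3.06 FPKM and the others 0.64 to 1.12 FPKM. The receptor of growth hormone, Ghr, was highest in WAT at 451 ± 36.3 FPKM and was 263 ± 28.1 FPKM in kidney and 179 ± 14.3 FPKM in liver. The receptors of the gonadotropins were highest in ovary, where Lhcgr was 177 ± 93.7 FPKM and Fshr 19.4 ± 9.57 FPKM, and Tshr was highest in WAT at 47.2 ± 7.99 FPKM.

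**Figure D5:**
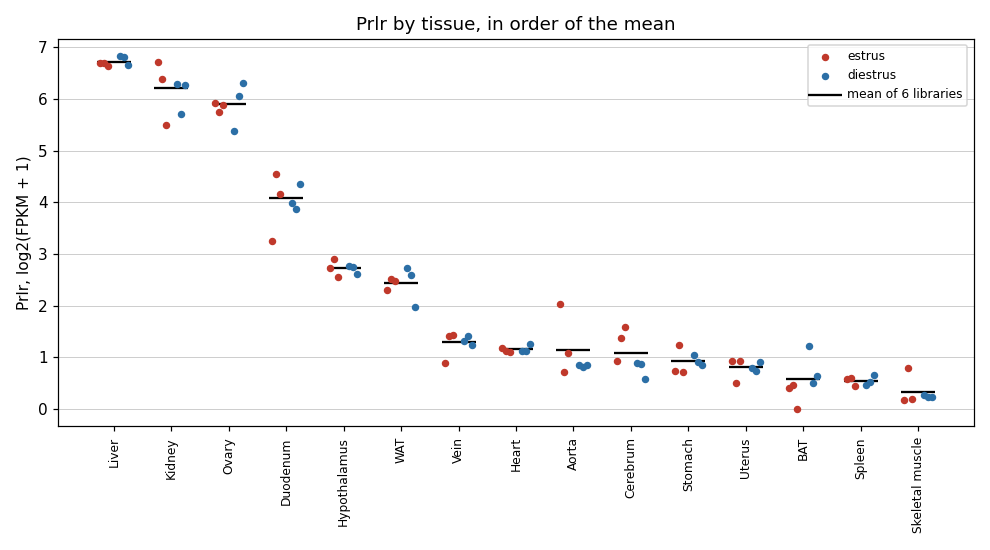
Prlr as log2(FPKM + 1) in every library, tissues ordered by mean FPKM (estrus red, diestrus blue), with a black bar at the log2 of the mean FPKM + 1 of the 6 libraries. Liver, kidney and ovary lie above 40 FPKM and overlap in part, duodenum stands alone, and the tissues from vein to skeletal muscle form a continuous run.

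The genes most like Prlr by Pearson r over the 15 tissue means were Depdc7 (r = 0.88), Nr1h4 (0.88), the bile acid receptor, Vnn1 (0.87), Pipox (0.87), Ahcy (0.85), Nbr1 (0.85), which takes part in autophagy, Srd5a2 (0.84), Bhmt (0.83), Fbp1 (0.83), an enzyme of gluconeogenesis, and Nat8f1 (0.83). Several are metabolic enzymes of liver or kidney, the 2 tissues with the highest Prlr.

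The question of the design was whether estrus and diestrus differ within a tissue. The members entered the phase test where their mean in the 6 libraries reached 1 FPKM, which held for 39 of 120 pairs of member and tissue, and a call in limma needed a log2 difference of 1 or more either way with an adjusted p no higher than 0.05. Of these 39 pairs 0 passed, beside 0% of all genes tested in 13 of the tissues, 0.00936% in skeletal muscle and 0.00798% in spleen. Over all tissues 2 genes passed, so a count of 0 among 39 pairs says little about the members. The study's own test, DEGSeq, called many more genes. Some pairs entered the test through 1 high library, as did Prl in kidney and Lhb in uterus. Pairs of the hormone genes in hypothalamus, stomach, kidney and muscle rest on values that took part in the choice. At an unadjusted p under 0.05 there were 5 pairs, Prl and Gh in hypothalamus and in skeletal muscle, whose p is not read because these values chose the genes, and Prlr in cerebrum. The share of all genes at that level was 3.11% in aorta, 12.8% in BAT, 3% in cerebrum, 13.5% in duodenum, 6.1% in heart, 13.2% in hypothalamus, 2.87% in kidney, 5.6% in liver, 5.96% in ovary, 20.8% in skeletal muscle, 3.51% in spleen, 7.38% in stomach, 3.74% in uterus, 12.1% in vein and 5.97% in WAT.

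In liver, Prlr was 103, 103 and 99.2 FPKM in estrus and 112, 111 and 99.4 FPKM in diestrus, which overlapped, with a log2 difference of estrus minus diestrus of -0.08 (SE 0.08, limma adjusted p = 0.861). In kidney it was 104, 82.5 and 44.3 FPKM in estrus and 76.9, 51.3 and 76.7 FPKM in diestrus, a difference of 0.11 (SE 0.30, adjusted p = 1.00). In ovary it was 59.3, 52.9 and 58.2 FPKM in estrus and 40.4, 65.2 and 77.8 FPKM in diestrus, a difference of -0.06 (SE 0.23, adjusted p = 0.979). In each of these 3 tissues, those with most receptor, the difference was within the spread between mice and the phases overlapped.

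In duodenum Prlr was 8.51, 22.3 and 16.9 FPKM in estrus and 14.8, 13.6 and 19.4 FPKM in diestrus, a log2 difference of -0.08 (SE 0.34, adjusted p = 0.925 in limma). In hypothalamus it was 5.61, 6.42 and 4.87 FPKM in estrus and 5.78, 5.67 and 5.11 FPKM in diestrus, a difference of 0.02 (SE 0.09, adjusted p = 0.948), and in WAT it was 3.91, 4.68 and 4.56 FPKM in estrus and 5.58, 5.03 and 2.90 FPKM in diestrus, a difference of 0.00099 (SE 0.21, adjusted p = 1.00). All 3 tissues overlapped between phases. Over the 10 tissues tested, the log2 difference of Prlr lay between -0.08 and 0.51.

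Cerebrum gave the highest difference of Prlr. It was 0.90, 1.58 and 2.00 FPKM in estrus and 0.85, 0.83 and 0.50 FPKM in diestrus, without overlap, a log2 difference of 0.51 (SE 0.19, limma adjusted p = 1.00). The nearest libraries of the 2 phases were 0.90 and 0.85 FPKM, and the share of all genes separated in this way was not counted. Genes of the choroid plexus, the epithelium that makes cerebrospinal fluid and carries much prolactin receptor, followed Prlr in some of the 6 libraries only. Ttr, the main secreted protein of that epithelium, was 150, 340 and 713 FPKM in estrus and 178, 260 and 25.0 FPKM in diestrus. The 14 genes of the choroid plexus list summed to 244, 496 and 883 FPKM in estrus and 291, 365 and 95.9 FPKM in diestrus, with 6, 9 and 13 of them at 1 FPKM or more in estrus and 7, 8 and 4 in diestrus and none at 0 in any of the 6. Estrus replicates 3 and 2 were the highest and diestrus replicate 3 the lowest library for Prlr and for the list. Estrus replicate 1 was above diestrus replicates 1 and 2 for Prlr but below both for the list and for Ttr. The list and Ttr overlapped between phases. The part of the choroid plexus in the phase difference was not tested.

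The differences of Prl and Gh outside hypothalamus are given as sizes without a p, since the traces in these libraries took part in the choice of the genes. In skeletal muscle the log2 difference of estrus minus diestrus was 1.99 (SE 0.77) for Prl and 1.53 (SE 0.60) for Gh, from estrus replicates 1 and 2, the libraries that also held stomach genes. Without estrus replicate 3, whose Prl and Gh were 0, the differences were 3.00 and 2.32. In cerebrum the log2 difference was 2.35 (SE 1.14) for Prl and 2.03 (SE 1.07) for Gh, and without estrus replicate 2 it was 1.28 and 0.88. In stomach it was -0.74 (SE 0.52) for Prl and -0.87 (SE 0.56) for Gh, and without estrus replicate 3, the low library, it was -0.12 and -0.22. The difference of Gh in spleen was 0.05 (SE 0.16, limma adjusted p = 0.978). That of Lhb in ovary was 0.93 (SE 0.53, adjusted p = 0.846), and 0.36 without estrus replicate 3.

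Tshb was tested in all 15 tissues and differed by log2 values between -0.22 and 0.36. In heart Tshb was 1.60, 1.61 and 1.54 FPKM in estrus and 2.04, 1.74 and 2.29 FPKM in diestrus, without overlap, a difference of -0.22 (SE 0.10, limma adjusted p = 0.803). How many of all genes were separated between phases in this way was not counted.

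Of the genes downstream of prolactin and growth hormone receptors, 13 of the 15 on the list were tested in liver, in kidney and in ovary, and in each tissue 0 rose and 0 fell past the limits of limma. At an unadjusted p under 0.05 there were 2 in liver, 0 in kidney and 1 in ovary. Those in liver were Socs2, an inhibitor of the pathway, at a log2 difference of -1.30 (SE 0.38, adjusted p = 0.811) and Stat5b, its main transcription factor, at 0.41 (SE 0.14, adjusted p = 0.811). The median of the list in liver was -0.08 beside -0.01 over all genes tested. In hypothalamus 0 of the 15 releasing hormone and dopamine genes passed in either direction and 3 had an unadjusted p under 0.05, with a median of -0.05 beside 0.01 over all genes. Of 12 receptors of the hormones, 8 were tested in hypothalamus and 4 in ovary, with 0 past the limits in each and 1 at an unadjusted p under 0.05 in each.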

How the data were processed

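RNA of 15 tissues was sequenced in 90 libraries. The authors filtered reads with SOAPnuke, aligned them with Bowtie2 2.2.5 to GRCm38.p5 and quantified genes with RSEM 1.2.8, per the study's methods and processing notes. The deposited values of 20414 genes are taken as FPKM from their range and from RSEM's output, without counts. Of these, 20265 were named by identifier. Groups came from the sample labels.

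Depth was approximated from the steps of FPKM among 980 short genes of 300 to 1100 bases with 1 transcript, and 45.8% to 66.9% of their values came out whole to within 0.2 reads, so counts were not recovered. Phases were compared within a tissue by limma 3.58.1 (R 4.3.3) with an intensity trend on log2(FPKM + 1), over genes averaging 1 FPKM or more in the tissue, with Benjamini-Hochberg adjustment over all of them. Fold changes are on that scale, where those of low genes come out too small. The procedure was tested on simulated data. Summaries used Python 3.11.15, numpy 2.4.6, pandas 2.3.3 and matplotlib 3.10.9.

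The members and lists were chosen with earlier results of these data known, and the lists of ciliated and B cells after the values were seen. Named genes were the 8 members, the 10 genes most like Prl, Gh and Prlr, the 20 highest ratios in hypothalamus estrus replicate 2, and list genes that a result turns on. Of the genes named by this rule and of the lists, some items are not reported here. Alternatives covered the pseudocount, the filter, the scale, 1 fit of all libraries, the trend, the replicate number as a block, each library left out, and other measures of likeness. Neighbours came from GENCODE M21.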

Additional observations from a re-analysis of the deposited data

Results flagged for a closer look

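For Tshb every estrus library was above every diestrus library in cerebrum and below in heart, and neither difference passed the test. In cerebrum Tshb was 4.38, 4.37 and 4.26 FPKM in estrus and 4.11, 4.25 and 4.10 FPKM in diestrus, a log2 difference of 0.05 (SE 0.07, limma adjusted p = 1.00), and in heart the log2 difference was -0.22 (SE 0.10, adjusted p = 0.803). The nearest libraries of the 2 phases in cerebrum were 4.26 and 4.25 FPKM. The share of all genes separated between phases in this way was not counted. The difference between the tissues was 0.27 on the log2 scale and was not itself tested. With 3 libraries per group no test for a single far library was made.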

How the results depend on the processing

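The number of members past the limits of limma was 0 in every tissue and stayed 0 in 193 of 195 recomputed counts. In hypothalamus 1 fit of all libraries gave 2, Prl and Gh. In skeletal muscle leaving out 1 library gave 0 to 2, with 2 (Prl and Gh) without estrus replicate 3. Both pairs rest on the values that chose these genes and are not read as calls. Pairing of estrus and diestrus libraries by replicate number was not seen in these counts. Of 15 tissues 0 had all 3 same-numbered pairs of deviations correlated over 0.1, and in 0 did every library correlate best with its own number. Single pairs ranged from -0.57 to 0.47. Whether a number marks a batch shared in part, or 1 mouse across tissues, was not tested. The replicate block called 0 members, and 5 genes over all tissues in place of 2. Of 221 recomputed phase differences of 17 named results, 17 turned direction, all of results that did not pass. Prlr in duodenum was 0.0631 under upper quartile scaling beside -0.08, in WAT -0.0467 in TPM and -0.0202 under upper quartile scaling beside 0.00099, and in hypothalamus -0.0447 in TPM beside 0.02. Leaving out 1 library gave -0.10 to 0.18 for Gh in spleen, -0.36 to 0.29 for Prlr in duodenum, -0.0644 to 0.10 for Prlr in hypothalamus, -0.15 to 0.46 for Prlr in kidney, -0.32 to 0.14 for Prlr in ovary and -0.23 to 0.15 for Prlr in WAT, and without a turn 1.28 to 3.53 for Prl and 0.88 to 2.99 for Gh in cerebrum, -1.13 to -0.12 and -1.25 to -0.22 in stomach, 1.41 to 3.00 and 1.11 to 2.32 in skeletal muscle, and 0.36 to 1.46 for Lhb in ovary. Of the 10 genes most like Prl, 3 were shared with Spearman's rho, 5 with a pseudocount of 0.1 and 4 without hypothalamus estrus replicate 2. For Gh these were 2, 4 and 3, for Prlr 2 with Spearman's rho and 7 with the pseudocount, and for Lhb 0, 4 and 3. Of the 20 genes highest in hypothalamus estrus replicate 2, 14 were kept with a pseudocount of 0.1. In TPM or by median, 10 and 10 of 15 tissues kept their place in the order of Prlr, and liver, kidney and ovary led in both. In TPM the mean of Prlr was 187 in liver and 142 in kidney, and that of Tshb 14.2 in spleen, through the change of unit. The causes were not tested otherwise. Depth limits the values below 1 FPKM most.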

Other observations

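Ghrh, the releasing hormone for growth hormone, was 63.5 FPKM in uterus estrus replicate 3 and 8.06 FPKM in ovary estrus replicate 3, the libraries with the highest Lhb of those tissues. In the other libraries it was 0.38 to 0.97 FPKM in uterus and 0.45 to 2.35 FPKM in ovary. In hypothalamus, its main source, it was 13.7 to 17.02 FPKM.

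Prl in hypothalamus diestrus replicate 1, at 9.29 FPKM, and in cerebrum diestrus replicates 1 and 2, at 5.01 and 6.91 FPKM, was no higher than in kidney diestrus replicate 3, at 9.51 FPKM.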
